A study of Mus musculus with 6 samples.

Results

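Transcripts of macrophages, other myeloid cells and leukocytes in general were followed in mouse kidney through 44 genes, which were chosen by name out of 57180 gene IDs in the deposited tables. They comprise macrophage surface receptors, growth factor receptors, the C1q chains, leukocyte integrins, Fc receptors, signalling adaptors and the phagocyte NADPH oxidase. They also include 2 transcription factors, lysosomal and secreted proteins, and pan-leukocyte membrane and cytoskeletal proteins. All 44 were found by their current symbol with 1 gene ID each. Of these, 42 had enough counts to be tested, and Cd163 and Trem2 did not. The kidneys came from 6 male wildtype C57BL/6J mice, bought at 7 weeks of age. The 3 vehicle mice received deionized water (0 mg/kg) and the 3 nanoplastic mice received cationic polystyrene nanoparticles at 200 mg/kg, by mouth, every day for 6 weeks. Each mouse gave 1 library of total RNA from kidney, and the proximal tubule gene Lrp2 was abundant in all 6. In such bulk RNA, fewer cells of a type and less RNA per cell cannot be told apart.

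The kidney holds a network of resident macrophages and dendritic cells that lies between the tubules and around the vessels, together with small numbers of circulating leukocytes. Macrophages depend on signals through the receptor Csf1r and are recognised by surface proteins such as Adgre1 (F4/80), while Ptprc (CD45) is carried by nearly every leukocyte. The transcription factor PU.1, the product of Spi1, sets up the myeloid programme, and Irf8 works with it. Several genes of the list are not restricted to leukocytes: Cyba, the small oxidase subunit, and Apoe, a lipid carrier, are made by many cell types, and Fcgr2b is also carried by some endothelial cells.

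The libraries held 19408534 to 26292760 expected counts each, and 18092 genes were tested. The values below are CPM, counts relative to the library's total after scaling by TMM, and log2 fold changes are nanoplastic minus vehicle. Fat and urothelial transcripts were uneven among the mice. Counts of Adipoq, which encodes adiponectin, numbered 130 in vehicle mouse 3, 444 in nanoplastic mouse 1 and 0 to 2 elsewhere. The urothelium markers summed to 48.1 CPM in nanoplastic mouse 1 and to 6.71 to 13.4 CPM in the others. Several counts and leading values below are also given without vehicle mouse 3 and nanoplastic mouse 1.

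No member passed the test between the groups. With edgeR's quasi-likelihood test 0 of the 42 members had a Benjamini-Hochberg adjusted p under 0.05, against 0% of all genes tested, and the lowest adjusted p among them was 0.501 (Ptprc). DESeq2 and limma-voom also called 0 members. At an unadjusted p under 0.05 there were 5 members, Ptprc, Mpeg1, Itgam, Lcp1 and Adgre1, all lower in nanoplastic. That is 11.9% of the members, where 7.42% of all genes passed in either direction, 3.61% lower and 3.80% higher. The count was 3 without vehicle mouse 1, without vehicle mouse 2 or without nanoplastic mouse 1. In these fits 1219, 742 and 1287 of all 18092 genes passed. Without vehicle mouse 3 and nanoplastic mouse 1 together it was 4, against 1809 of the 18092 genes. DESeq2 gave 3, against 915 of 31316 genes, and limma-voom gave 5, against 1301 of 18092.

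Most members lay slightly below their vehicle level. The log2 fold change was below 0 in 30 of 42 members and above 0 in 12, while 48.0% of all genes were below 0. The median over the members was -0.12, with quartiles of -0.23 and 0.03, and the median over all genes was 0.01. Without vehicle mouse 3 and nanoplastic mouse 1 the members' median was -0.17, and 34 of 42 were below 0. A single member's fold change had a median standard error (SE) of 0.18. The 95% interval included 0 in 37 members. Changes of 1.5-fold or more, up or down, lay outside the interval in 24 members (57.1%, against 63.6% of all genes), and changes of 2-fold or more in 37 (88.1%, against 84.4%). The exceptions to the latter were Itgam, Ncf4, Cd48, Lst1 and Aif1, with 5 to 61 counts a library.

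**Figure D1:**
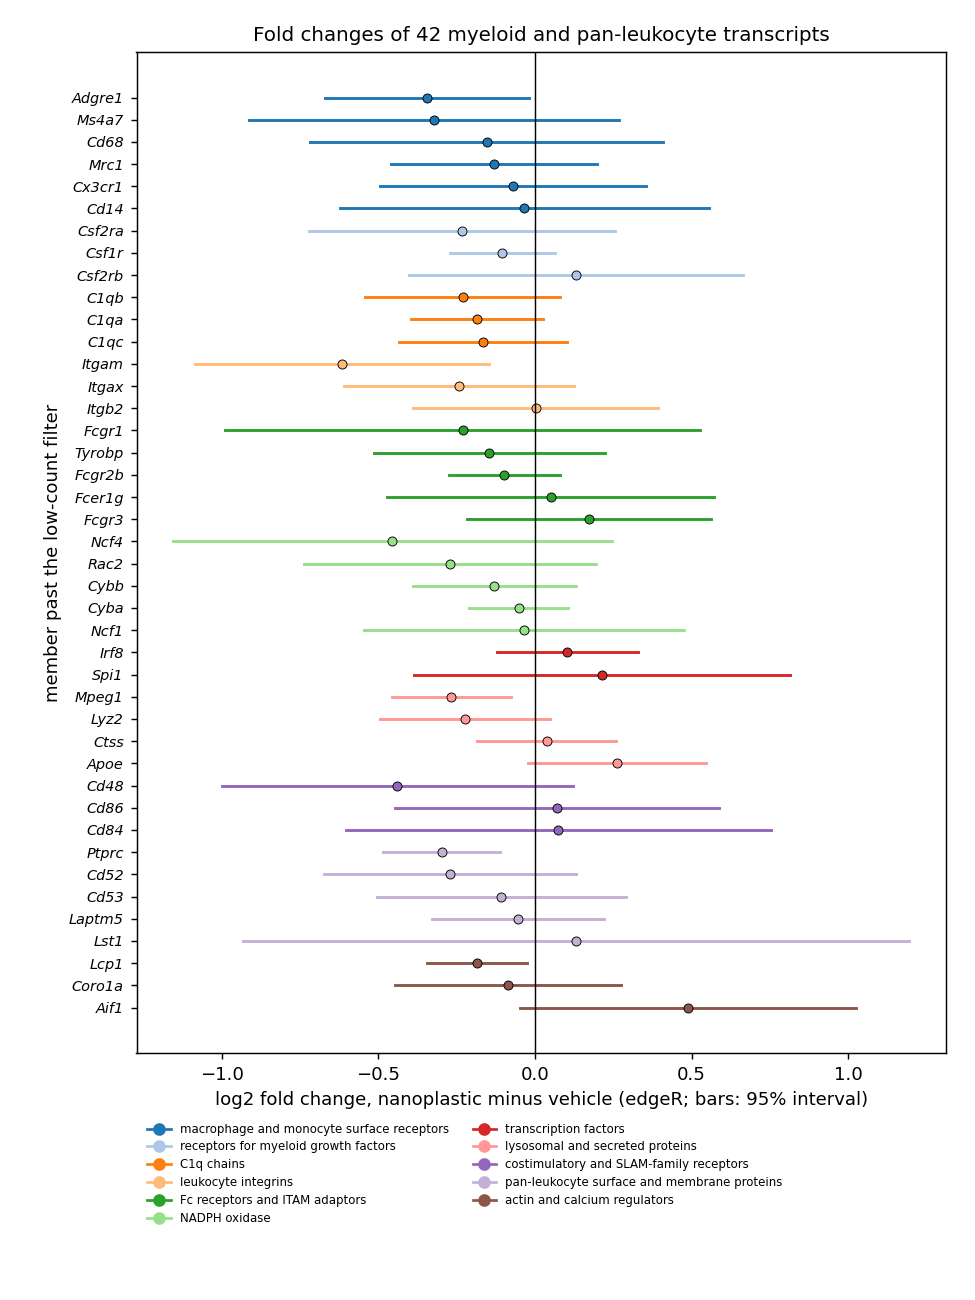
Log2 fold change (x axis, nanoplastic minus vehicle, edgeR) of each of the 42 members that passed the low-count filter (y axis), coloured by role. Points are estimates and bars 95% intervals, 30 of the points lie below 0, and 5 of the intervals exclude 0.

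In 7 members (16.7%, against 12.9% of all genes) the values of the vehicle and nanoplastic mice were separate. In 6 of them, Ptprc, Mpeg1, Itgam, Lcp1, C1qa and Rac2, every nanoplastic mouse was below every vehicle mouse, which is 14.3% of the members against 6.32% of all genes. In 1, Aif1, every nanoplastic mouse was above, against 6.54% of all genes. Among the vehicle mice, mouse 3 was the lowest in 21 of 42 members and mouse 1 the highest in 19. Within the nanoplastic group the highest value lay in mouse 1 for 16 members, in mouse 2 for 17 and in mouse 3 for 9.

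Upstream sequences are shown for the 3 members of lowest p and for Aif1, the member that was higher without overlap, because PU.1 is known to act at many myeloid promoters. They are the 250 bases before the annotated start, 5′ to 3′ on the gene's strand, from RefSeq on GRCm38.p6, which is not the build of the counts. Capitals mark the PU.1 core GAGGAA on either strand, so that the reverse strand reads TTCCTC. Of the 44 members 31 were in the RefSeq table, with 39 windows of 300 bases, and Adgre1 and C1qa were not.
Itgam, chr7:128062390-128062639, plus strand: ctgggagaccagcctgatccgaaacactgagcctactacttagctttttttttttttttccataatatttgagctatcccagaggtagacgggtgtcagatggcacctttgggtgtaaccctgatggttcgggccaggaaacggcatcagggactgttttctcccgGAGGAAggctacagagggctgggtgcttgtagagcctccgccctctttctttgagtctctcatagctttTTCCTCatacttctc
Ptprc, chr1:138175306-138175555, minus strand: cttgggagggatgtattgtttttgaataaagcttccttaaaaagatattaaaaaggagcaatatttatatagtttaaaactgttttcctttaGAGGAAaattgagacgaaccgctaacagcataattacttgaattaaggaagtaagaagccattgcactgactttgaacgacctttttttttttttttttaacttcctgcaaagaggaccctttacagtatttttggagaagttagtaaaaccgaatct
Mpeg1, chr19:12460520-12460769, plus strand: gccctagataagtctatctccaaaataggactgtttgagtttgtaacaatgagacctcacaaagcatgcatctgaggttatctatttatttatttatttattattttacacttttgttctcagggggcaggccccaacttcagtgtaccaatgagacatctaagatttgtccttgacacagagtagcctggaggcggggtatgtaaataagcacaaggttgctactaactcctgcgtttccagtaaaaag
Aif1, chr17:35176053-35176302, minus strand: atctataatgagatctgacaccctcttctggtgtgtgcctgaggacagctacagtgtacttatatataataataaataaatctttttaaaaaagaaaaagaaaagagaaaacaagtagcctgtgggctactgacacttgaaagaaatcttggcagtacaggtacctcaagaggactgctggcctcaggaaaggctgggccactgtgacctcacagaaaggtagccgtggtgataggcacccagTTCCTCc

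Itgam held the core at 84 and 15 bases before its start and Aif1 at 7 bases before it. In Ptprc, of which the further upstream of 2 windows is shown, it lay 158 bases before the start, and the window of the other start did not hold it. The Mpeg1 window did not hold these letters. Over the whole 300 bases the core GAGGAA was present in 20 of 39 member windows (51.3%), and in 28.3% of all 32851 windows in the table. Counted by gene, 18 of 31 members (58.1%) and 31.3% of all 27025 genes held it. The longer form GAGGAAGT, which contains the core, was in 3 member windows (7.69%, against 3.20% of all windows), those of C1qc, Cd53 and Ctss. A match of letters is a description and was not set against the fold changes.

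Ptprc, the tyrosine phosphatase CD45 of leukocytes, had the lowest p of all members. It measured 31.0, 30.8 and 27.3 CPM in vehicle mice 1, 2 and 3, and 23.4, 26.0 and 23.0 CPM in nanoplastic mice 1, 2 and 3. The highest nanoplastic value, in mouse 2, lay just below the lowest vehicle value, in mouse 3. The log2 fold change was -0.30 (SE 0.08, 95% interval -0.49 to -0.11, edgeR adjusted p = 0.501), and -0.33 without vehicle mouse 3 and nanoplastic mouse 1. The other pan-leukocyte membrane genes overlapped between the groups. Cd52, a short surface glycoprotein of leukocytes, had a log2 fold change of -0.27 (SE 0.18), and its vehicle mouse 3, at 4.12 CPM, lay among the nanoplastic mice. The tetraspanin Cd53 was at -0.11 (SE 0.18), the lysosomal membrane protein Laptm5 at -0.05 (SE 0.12) and Lst1, which had 5 to 19 counts a library, at 0.13 (SE 0.48).

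Cytoskeletal genes of leukocytes differed in sign. Lcp1, the actin-bundling protein L-plastin, measured 33.5, 33.1 and 31.2 CPM in vehicle and 27.5, 29.8 and 28.8 CPM in nanoplastic mice. Its groups lay close but apart, with a log2 fold change of -0.19 (SE 0.07, edgeR adjusted p = 0.611), and of -0.18 without vehicle mouse 3 and nanoplastic mouse 1. Aif1, the calcium-binding macrophage protein Iba1, measured 1.13, 1.39 and 1.15 CPM in vehicle and 1.95, 1.46 and 1.72 CPM in nanoplastic mice. It was the only member of the 42 whose nanoplastic mice were all above the vehicle mice, at a log2 fold change of 0.49 (SE 0.24, edgeR adjusted p = 0.696). That value rested on 27 to 48 counts a library, and it was 0.33 without vehicle mouse 3 and nanoplastic mouse 1. Coro1a, a leukocyte coronin that binds actin, overlapped between the groups, at -0.09 (SE 0.16), with vehicle mouse 1 alone above 10 CPM, at 11.3.

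The leukocyte integrins held the member with the lowest log2 fold change of the 42, Itgam. Itgam, the CD11b subunit of myeloid cells, measured 2.38, 2.08 and 2.12 CPM in vehicle and 1.38, 1.38 and 1.56 CPM in nanoplastic mice, from 30 to 61 counts a library. All nanoplastic mice were below all vehicle mice. The log2 fold change was -0.62 (SE 0.21, 95% interval -1.09 to -0.15, edgeR adjusted p = 0.591), and -0.61 without vehicle mouse 3 and nanoplastic mouse 1. Itgax, the CD11c subunit that marks dendritic cells and many kidney macrophages, was at -0.24 (SE 0.17), with groups that overlapped. Itgb2, the beta subunit (CD18) shared by both, was at 0.00 (SE 0.18, 95% interval -0.39 to 0.39).

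All 6 tested members grouped as surface receptors of macrophages and monocytes, Cd68 among them, had estimates below 0, with a median of -0.14. With 1 library left out, the estimates of Cd14 and Cx3cr1 reached up to 0.12 and 0.11. Adgre1 measured 10.7, 11.01 and 7.94 CPM in vehicle and 6.94, 8.47 and 7.96 CPM in nanoplastic mice. Vehicle mouse 3 lay inside the nanoplastic range, and the log2 fold change was -0.35 (SE 0.15, edgeR adjusted p = 0.659), and -0.39 without vehicle mouse 3 and nanoplastic mouse 1. Ms4a7, a tetraspan protein of macrophages, was at -0.32 (SE 0.27), the endolysosomal protein Cd68 at -0.15 (SE 0.26) and the mannose receptor Mrc1 at -0.13 (SE 0.15). The chemokine receptor Cx3cr1 was at -0.07 (SE 0.19). Cd14, a coreceptor for bacterial lipopolysaccharide, was at -0.03 (SE 0.27), with nanoplastic mouse 1 the highest of all 6 at 3.86 CPM and the other nanoplastic mice the lowest, at 2.13 and 1.98 CPM. Without vehicle mouse 3 and nanoplastic mouse 1 its estimate was -0.52. The scavenger receptor Cd163 had 40 counts over the 3 vehicle libraries and 31 over the 3 nanoplastic libraries. Trem2, a lipid-sensing receptor that signals through Tyrobp, had 19 and 7 counts. Both were below the filter. In edgeR without a filter Trem2 was at -1.31 (SE 0.70, adjusted p = 0.780) and Cd163 at -0.28 (SE 0.44, adjusted p = 0.876), and no difference was detected.

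**Figure D2:**
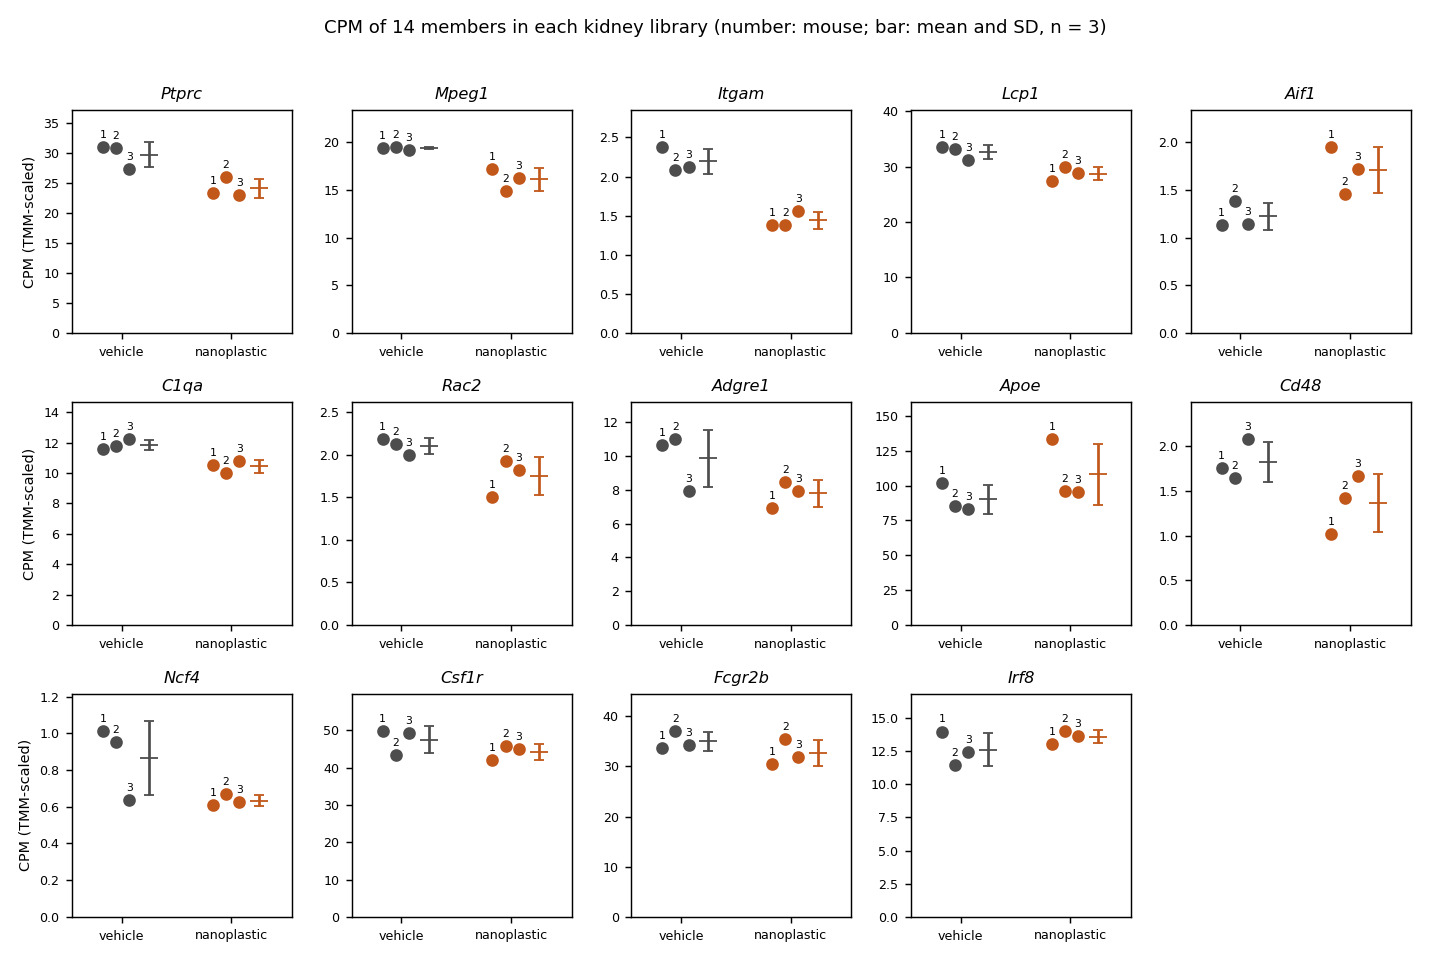
CPM (y axis, from 0) of the 14 members described by library, in vehicle (grey) and nanoplastic (orange) kidneys. Each point is 1 mouse with its number, the bar is the mean with its SD (n = 3), and in Ptprc, Mpeg1, Itgam, Lcp1, C1qa, Rac2 and Aif1 the points of the groups do not overlap.

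Of the growth factor receptors, Csf1r was the most precisely measured. It measured 49.8, 43.4 and 49.3 CPM in vehicle and 41.9, 45.8 and 44.9 CPM in nanoplastic mice, and its groups overlapped. With -0.10 (SE 0.08, 95% interval -0.27 to 0.06, edgeR adjusted p = 0.780) its interval excluded a change of 1.5-fold. Csf2ra, the receptor chain specific to GM-CSF, was at -0.23 (SE 0.22), and Csf2rb, the chain it shares with the receptors of interleukin-3 and interleukin-5, at 0.13 (SE 0.24). Neither interval excluded a change of 1.5-fold, and with effective lengths as offsets the estimates were -0.52 and -0.51. Csf1r counts were not whole in any of the 6 libraries and those of Csf2rb in 2, so some of their reads were divided with other genes, and Csf2rb has a near-identical copy.

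The C1q chains, which macrophages make for the complement recognition molecule, stood at similar values. C1qa measured 11.6, 11.7 and 12.2 CPM in vehicle and 10.6, 9.98 and 10.8 CPM in nanoplastic mice, without overlap. Its log2 fold change was -0.19 (SE 0.10, edgeR adjusted p = 0.705), and -0.17 without vehicle mouse 3 and nanoplastic mouse 1. C1qb was at -0.23 (SE 0.14) and C1qc at -0.17 (SE 0.12), and in both the groups overlapped. Each of the 3 intervals included 0 and excluded a change of 1.5-fold.

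Among Fc receptors and adaptors with activation motifs, 3 of 5 estimates were below 0. Fcgr2b, the inhibitory IgG receptor, measured 33.6, 37.1 and 34.2 CPM in vehicle and 30.6, 35.5 and 31.9 CPM in nanoplastic mice, with groups that overlapped and a log2 fold change of -0.10 (SE 0.08, edgeR adjusted p = 0.805). The activating receptors Fcgr1 and Fcgr3 were at -0.23 (SE 0.34) and 0.17 (SE 0.18). The adaptor Tyrobp (DAP12) was at -0.15 (SE 0.17) and Fcer1g, the common Fc gamma chain, at 0.05 (SE 0.24). Fcgr2b and Fcgr3 are close paralogs, and their counts were not whole in 5 and 4 libraries.

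All 5 genes of the NADPH oxidase, which produces superoxide in phagocytes, had estimates below 0, between -0.46 and -0.04. Rac2, the haematopoietic GTPase of the complex, measured 2.18, 2.12 and 2.00 CPM in vehicle and 1.502, 1.92 and 1.82 CPM in nanoplastic mice. The groups were separate by a small gap, at a log2 fold change of -0.27 (SE 0.21, edgeR adjusted p = 0.795), and of -0.20 without vehicle mouse 3 and nanoplastic mouse 1. Ncf4, the cytosolic subunit p40phox, measured 1.01, 0.954 and 0.637 CPM in vehicle and 0.609, 0.668 and 0.624 CPM in nanoplastic mice. Vehicle mouse 3 was within the nanoplastic range, and the log2 fold change was -0.46 (SE 0.32, edgeR adjusted p = 0.768) from 12 to 26 counts a library. The membrane subunit Cybb (gp91phox) was at -0.13 (SE 0.12), its partner Cyba (p22phox) at -0.05 (SE 0.07) and Ncf1 (p47phox) at -0.04 (SE 0.23).

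The transcription factors were both above 0, with intervals that included 0. Irf8 measured 13.99, 11.5 and 12.4 CPM in vehicle and 13.1, 14.03 and 13.7 CPM in nanoplastic mice, and nanoplastic mouse 2 lay just above the highest vehicle value while the other nanoplastic mice lay within the vehicle range. Its log2 fold change was 0.10 (SE 0.10, edgeR adjusted p = 0.837). Spi1 was at 0.21 (SE 0.27), with nanoplastic mouse 3 alone, at 2.03 CPM, above all vehicle mice, and the estimate was -0.01 without that mouse.

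Lysosomal and secreted products were divided. Mpeg1, the pore-forming protein perforin-2 of macrophages, measured 19.4, 19.5 and 19.2 CPM in vehicle and 17.2, 14.9 and 16.3 CPM in nanoplastic mice. The vehicle mice were nearly equal and all above the nanoplastic mice, with a log2 fold change of -0.27 (SE 0.09, 95% interval -0.46 to -0.08, edgeR adjusted p = 0.541), and of -0.32 without vehicle mouse 3 and nanoplastic mouse 1. Lyz2, the myeloid lysozyme, was at -0.22 (SE 0.12), with vehicle mouse 3 at 19.6 CPM beside 26.4 and 27.5 CPM in the other vehicle mice. Lyz2 has a near-identical neighbour, Lyz1. Ctss, the lysosomal protease cathepsin S, was at 0.04 (SE 0.10, 95% interval -0.18 to 0.26). Apoe measured 101.8, 85.7 and 82.9 CPM in vehicle and 133.4, 95.8 and 95.1 CPM in nanoplastic mice, and its groups overlapped. Its log2 fold change of 0.26 (SE 0.13, edgeR adjusted p = 0.691) was 0.03 without vehicle mouse 3 and nanoplastic mouse 1.

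Costimulatory and SLAM-family receptors were thinly covered. Cd48, a ligand of SLAM-family receptors found on most leukocytes, measured 1.75, 1.65 and 2.08 CPM in vehicle and 1.02, 1.42 and 1.66 CPM in nanoplastic mice. The groups overlapped through nanoplastic mouse 3, and the log2 fold change was -0.44 (SE 0.25, edgeR adjusted p = 0.725), and -0.15 without vehicle mouse 3 and nanoplastic mouse 1. Cd86, which costimulates T cells, was at 0.07 (SE 0.23), and Cd84, a SLAM-family receptor, at 0.07 (SE 0.31) with its highest value, 2.31 CPM, in nanoplastic mouse 1.

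**Figure D3:**
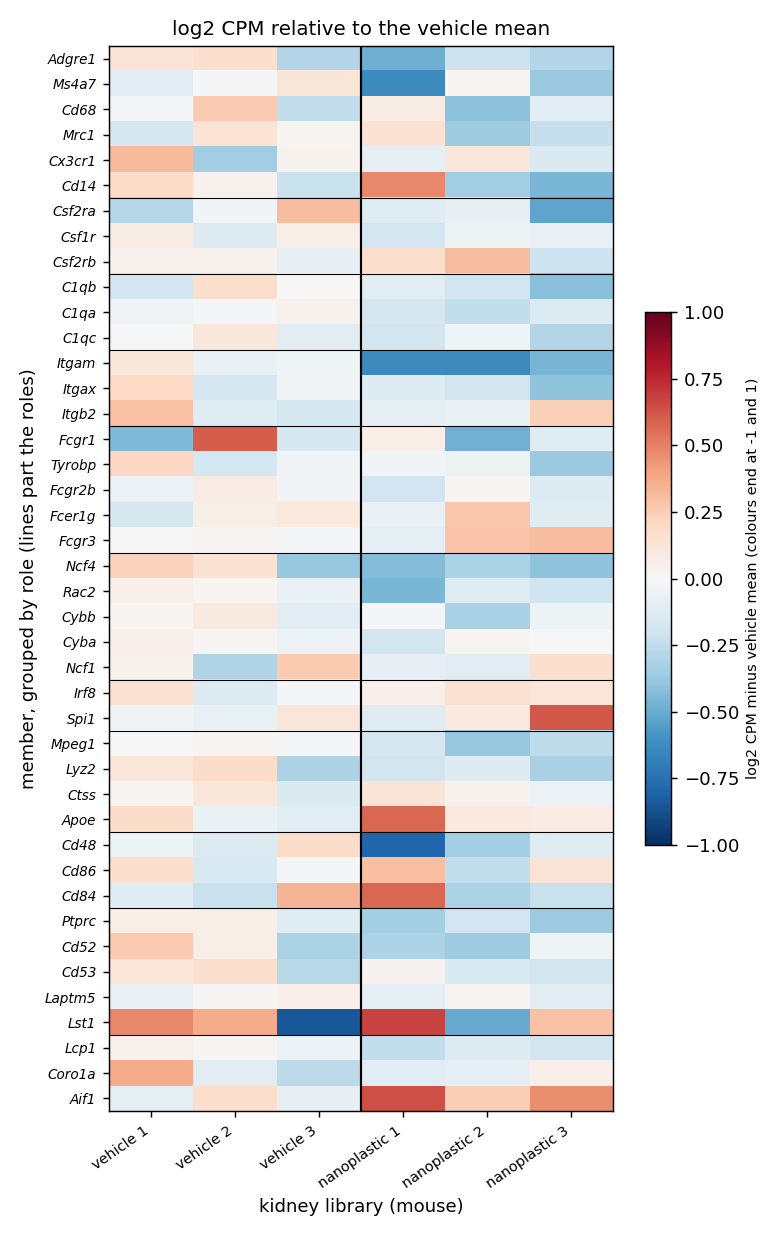
Log2 CPM of each of the 42 tested members (rows, grouped by role) in each of the 6 libraries (columns), relative to the mean of the 3 vehicle mice. Blue is below and red above that mean, and the median over the rows was -0.10, -0.12 and -0.13 in nanoplastic mice 1, 2 and 3.

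Seen by library, the members' median log2 deviation from the vehicle mean was 0.04, 0.02 and -0.05 in vehicle mice 1, 2 and 3 and -0.10, -0.12 and -0.13 in nanoplastic mice 1, 2 and 3. By this median the nanoplastic libraries were all below the vehicle libraries, by a margin smaller than the range of the latter. By the mean deviation over the same members the groups overlapped, with vehicle mouse 3 at -0.0701 and nanoplastic mouse 1 at -0.0676. Summed over the members other than Cyba and Apoe, the level was 361.0, 353.6 and 333.4 CPM in vehicle and 315.3, 321.8 and 311.9 CPM in nanoplastic mice. Cyba and Apoe together made up 46.5% to 50.9% of the members' CPM, and with both included the ranges met, at 628.5 to 690.5 CPM in vehicle and 626.6 to 642.8 CPM in nanoplastic.

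Levels of different genes were compared per kb of effective length. In vehicle kidneys Cyba was the highest, at 410.7 ± 12.6 CPM per kb (SD, n = 3), followed by Apoe at 106.4 ± 11.2. The next members were Fcgr2b at 25.5 ± 1.41 and Lyz2 at 22.1 ± 3.88 CPM per kb, which lay within the latter's SD of each other. Cd52, Csf1r, C1qa, Ctss, Lcp1 and Tyrobp followed between 16.9 and 12.1 CPM per kb, and no neighbours in that order differed by more than the sum of their SDs. Itgam, at 0.751 ± 0.291 CPM per kb, ranked 40th of the 44, and Trem2 and Cd163 were the lowest, at 0.218 ± 0.0632 and 0.152 ± 0.0889 CPM per kb. The order of the nanoplastic means at the top was the same for Cyba, Apoe, Fcgr2b and Lyz2, at 394.0, 131.6, 24.0 and 18.8 CPM per kb.

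**Figure D4:**
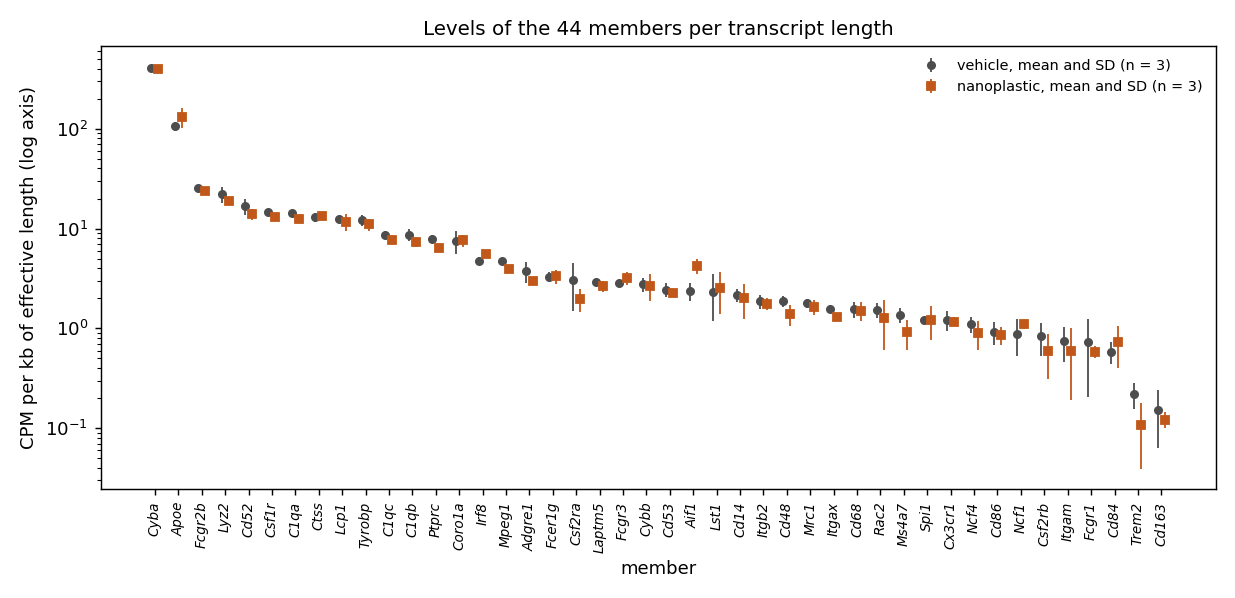
CPM per kb of effective length (y axis, log scale) of all 44 members in vehicle and nanoplastic kidneys, ordered by the vehicle mean. Points are means and bars SD (n = 3), from 410.7 for Cyba to 0.152 for Cd163 in vehicle.

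The estimated length of the transcripts bore on several thinly covered members and on Lcp1, which had 553 to 860 counts a library. RSEM estimates an effective length for every gene in each library from its mix of isoforms, and in 11 of the 44 members this length differed by over 1.5 times between libraries. Per kb, Ptprc, Mpeg1, C1qa and Aif1 still did not overlap between the groups, and Itgax joined the lower ones, while Itgam, Lcp1 and Rac2 overlapped. That made 4 lower members, or 9.52%, against 6.15% of all genes, and 1 higher, against 6.17%. Itgam measured 0.673, 1.07 and 0.507 CPM per kb in vehicle and 0.325, 1.06 and 0.405 in nanoplastic mice. With the lengths as offsets in edgeR, Itgam had a log2 fold change of -0.54 (SE 0.41), Ptprc of -0.30 (SE 0.10), Mpeg1 of -0.26 (SE 0.10) and Lcp1 of -0.10 (SE 0.13). Aif1 was then at 0.88 (SE 0.28, edgeR adjusted p = 0.621), and 3 members, Ptprc, Mpeg1 and Aif1, had an unadjusted p under 0.05, against 1291 of all 18092 genes. Exons of 9 members (Cx3cr1, Csf1r, Csf2rb, Itgam, Fcgr2b, Ncf1, Cd52, Coro1a and Lcp1) overlap exons of another gene in GENCODE vM21, 7 of them on the opposite strand and Itgam and Csf2rb on the same strand. Reads from such exons could belong to either gene, and for the latter members the strand would not tell them apart.

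Related genes outside the list gave 0 calls with edgeR as well. Of a wider list of macrophage genes 32 of 50 tested were below 0, with a median log2 fold change of -0.07. In 7 of the 50 every nanoplastic mouse was below every vehicle mouse, and in 1 every one was above, against 6.32% and 6.54% of all genes. The list held 3 genes at an unadjusted p under 0.05, all lower, where 3.61% of all genes were lower and 3.80% higher. They included Lpl, a lipase that many kidney cells also make (-0.50, SE 0.09, edgeR adjusted p = 0.248), and Slc40a1, the iron exporter ferroportin (-0.31, SE 0.06, edgeR adjusted p = 0.311). Selenop, the most abundant gene of that list and also made by tubules, was at -0.13 (SE 0.09). Of genes of ITAM and integrin signalling 28 of 41 were below 0, with a median of -0.12, and 4 were lower and 3 higher at an unadjusted p under 0.05. Of all genes 3.61% were lower and 3.80% higher at that threshold. In 7 of the 41 every nanoplastic mouse was below every vehicle mouse, and in 5 every one was above. The shares of all genes were 6.32% and 6.54%. Ikzf1, the lymphoid and myeloid factor Ikaros, measured 5.03, 5.64 and 4.04 CPM in vehicle and 2.84, 3.84 and 3.33 CPM in nanoplastic mice, without overlap (-0.55, SE 0.19, edgeR adjusted p = 0.578). Cebpa, a myeloid and metabolic transcription factor, was at 0.34 (SE 0.11), again without overlap but higher, and Dock8, an activator of small GTPases, at -0.15 (SE 0.07).

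For the ligands and counter-receptors 14 of 17 were below 0, with a median of -0.09. In 4 of the 17 every nanoplastic mouse was below every vehicle mouse, and in 0 every one was above, against 6.32% and 6.54% of all genes. At an unadjusted p under 0.05 in edgeR 1 was lower and 0 higher, where 3.61% of all genes were lower and 3.80% higher. Il34, a ligand of Csf1r that tubules produce, measured 11.1, 14.7 and 11.05 CPM in vehicle and 7.19, 9.52 and 9.15 CPM in nanoplastic mice. All nanoplastic mice were below all vehicle mice (-0.52, SE 0.15, edgeR adjusted p = 0.501). Cx3cl1, the ligand of Cx3cr1, was at -0.16 (SE 0.07), also without overlap, and Cd47, which signals to macrophages through Sirpa, at -0.07 (SE 0.07). Oxidase partners and homologues had 6 of 7 below 0 and a median of -0.08. Cyb5r4, a flavohaemoprotein reductase, was at -0.12 (SE 0.06), Rac1 at -0.08 (SE 0.06) and Nox4, the abundant oxidase of tubules, at -0.05 (SE 0.09).

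Other leukocyte classes were mixed in sign, and few of the neutrophil, NK and mast cell genes had enough counts to be tested. The monocyte list had 6 of 12 below 0 (median 0.04), including Fn1, or fibronectin, at -0.44 (SE 0.09) and Ace at -0.18 (SE 0.09), both of which other kidney cells make, and Vcan at 1.97 (SE 0.88), which rested on 23.6 CPM in nanoplastic mouse 1 beside 1.67 to 2.82 CPM in the others. Of 16 neutrophil genes 4 were tested and 2 of these were below 0 (median -0.03), with the calprotectin subunit S100a9 at 0.80 (SE 0.42) without overlap but from 4 to 12 counts a library, Mmp9 at -0.22 (SE 0.42) and Lcn2 at 0.16 (SE 0.38), and 4 genes of the list, among them Ly6g, at 0 counts in all 6 libraries. Dendritic cell genes had 5 of 14 below 0 (median 0.06), with Tcf4 at 0.14 (SE 0.08) and the type 1 dendritic cell receptor Clec9a at -0.32 (SE 0.21). T cell genes had 8 of 13 below 0 (median -0.09), with Cd4 at -0.46 (SE 0.35), Cd3g at -0.67 (SE 0.53) and Cd247 at -0.21 (SE 0.34). B and plasma cell genes had 8 of 11 below 0 (median -0.24), with Igkc, the kappa light chain, at -0.89 (SE 0.38) and highest in vehicle mice 1 and 2, at 8.69 and 5.94 CPM, Ighd at 0.93 (SE 0.48) and Xbp1, which many secretory cells make, at -0.13 (SE 0.08). NK and cytotoxic genes had 2 of 3 below 0 (median -0.02), with Prf1 at -0.58 (SE 0.44), Klrk1 at 0.18 (SE 0.34) and Il2rb at -0.02 (SE 0.28). Mast cell and basophil genes had 0 of 3 below 0 (median 0.17), with Hdc at 0.41 (SE 0.20), Gata2 at 0.17 (SE 0.14) and Kit at 0.00 (SE 0.09), and tubular or endothelial cells of the kidney also express some of these.

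The lists of markers of other cells held 0 genes called with edgeR. The lowest edgeR adjusted p was 0.156 in the fibroblast and matrix list and 0.208 in that of dividing cells. Their median log2 fold changes varied, and the part of these cells in the members' values was not tested. Fibroblast and matrix genes were below 0 in 13 of 13 (median -0.31, summed 502.3 to 601.2 CPM in vehicle and 416.8 to 506.9 in nanoplastic), and Col3a1, a fibrillar collagen, was at -0.72 (SE 0.10). Genes of dividing cells were below 0 in 9 of 9 (median -0.58, summed 31.2 to 32.1 CPM in vehicle and 19.2 to 22.6 in nanoplastic), with Mki67 at -0.70 (SE 0.11), and erythrocyte genes in 6 of 7 (median -0.44, summed 602.7 to 888.2 CPM in vehicle and 515.4 to 652.8 in nanoplastic), with the globin Hbb-bt at -0.59 (SE 0.14). Adipocyte genes had 2 of 7 below 0 (median 0.51, summed 1413 to 1556 CPM in vehicle and 1104 to 1330 in nanoplastic) and urothelium genes 0 of 7 (median 1.18, with Upk1b at 1.34, SE 0.75). The adipocyte list shares Lpl and Cd36 with the wider macrophage list. In vehicle its sum was higher in mouse 2 (1556 CPM) than in mouse 3 (1437 CPM), which held the Adipoq counts. In nanoplastic it was highest in mouse 1, at 1330 CPM. Medians of proximal tubule (-0.01, 9 of 12 below 0), distal nephron (-0.02, 6 of 12), podocyte (-0.02, 5 of 9) and endothelium (-0.02, 10 of 14) were near 0, with Lrp2, the proximal tubule receptor megalin at 7197 to 8748 CPM in all libraries, at -0.10 (SE 0.11) and Pecam1, the endothelial CD31, at 0.05 (SE 0.09).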

How the data were processed

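Kidney RNA of 6 mice, 1 library each, was sequenced on an Illumina instrument, per the labels' protocols. The submitters' processing notes name FastQC, Trim Galore 0.6.6, STAR 2.7.9a, RSEM 1.3.3 and the build GRCm39. The annotation release and strandedness are not given in the sources used here. Per the file headers, the deposited values are RSEM expected counts, which are not normalized, and effective lengths, another RSEM estimate. Symbols came from GENCODE vM21, by gene ID for 51884 of 57180 IDs and by transcript ID for 760.

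Rounded expected counts that passed filterByExpr were scaled by TMM. The test was edgeR's quasi-likelihood test (4.0.16, legacy = FALSE, group only) in R 4.3.3, over 18092 genes with Benjamini-Hochberg adjustment at 0.05. SE is the log2 fold change over the root of F. Intervals (95%) cover the estimated variation between mice and counting error, and no molecular identifiers are named in the labels. Alternatives used DESeq2 1.42.0, limma 3.58.1, other scalings and filters, libraries left out, a replicate block and lengths. The edgeR step was tested on simulated data.

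The members and the 20 gene lists were chosen with earlier results of these data known. By a fixed rule, members are given by library where the groups did not overlap, where p was among the 8 lowest of the members, or where it was the lowest of a role. Of each leukocyte list the 2 genes of lowest p and the most abundant gene are named, and of other cell types fixed markers, of which 1 is not reported here. Ly6g and the sequences shown were chosen after values were seen.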

Additional observations from a re-analysis of the deposited data

How the results depend on the processing

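Of 42 members 28 kept their direction in every alternative that measured them, out of 17 (Ncf4 and Lst1 did not pass the filter of 1 CPM in 3 libraries), and 0 members passed the adjusted threshold in any. The count of genes called was 0 with edgeR, 55 with DESeq2 (20 higher, 35 lower), 30 without vehicle mouse 3 and nanoplastic mouse 1 together (14 higher, 16 lower), and 0 to 9 with 1 library left out (9 without nanoplastic mouse 1); the cause was not tested. Members at an unadjusted p under 0.05 numbered 3 to 7 with 1 library left out, 3 with DESeq2 and 3 with effective lengths as offsets. The lengths were an alternative chosen after seeing the data, as was edgeR's legacy estimate. Over all 18092 genes 742 to 1733 passed that threshold with 1 library left out, and 1291 with the lengths. With DESeq2 915 of 31316 genes passed it. The members' median log2 fold change was -0.073 with scaling by library size alone, where the median of all genes was 0.05, -0.17 without vehicle mouse 3 and nanoplastic mouse 1, and -0.17 to -0.10 with 1 library left out. Between 28 and 32 members were below 0 with 1 library left out.

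The labels state no pairing of the mice by replicate number. Same-numbered libraries correlated at 0.04, -0.02 and 0.10 in their deviations from the group means. The last value, for vehicle mouse 3 and nanoplastic mouse 3, was the highest of all pairs, but not every library correlated best with its own number. With 3 libraries a group such correlations cannot decide whether the mice were paired. With the replicate block 0 genes and 0 members were called, and the members' median was -0.12. At an unadjusted p under 0.05 there were 7 members, against 1408 of all 18092 genes.

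Values that turned sign were small or thinly covered. With 1 library left out the ranges of log2 fold change were -0.42 to 0.12 for Cd14, -0.31 to 0.27 for Cd84, -0.074 to 0.22 for Cd86, -0.21 to 0.13 for Coro1a, -0.032 to 0.10 for Ctss, -0.22 to 0.11 for Cx3cr1, -0.094 to 0.016 for Cyba, -0.10 to 0.12 for Fcer1g, -0.46 to 0.15 for Fcgr1, -0.10 to 0.17 for Itgb2, -0.25 to 0.45 for Lst1, -0.17 to 0.11 for Ncf1 and -0.012 to 0.38 for Spi1. Without vehicle mouse 3 and nanoplastic mouse 1 Itgb2 was at -0.023, Ncf1 at 0.15, Ctss at -0.078, Cd84 at -0.11, Cd86 at -0.084 and Lst1 at -0.60. With lengths as offsets Csf2rb was at -0.51, Itgb2 at -0.085, Ncf1 at 0.38, Spi1 at -0.073 and Cd86 at -0.058. With library size alone Cd14 was at 0.014 and Ncf1 at 0.0086, and Itgb2 was at -0.00089 with DESeq2 size factors and at -0.0053 without a filter. The interval reached 2-fold in 5 members, which had 5 to 61 counts a library, and other members with as few counts excluded it.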
